A study of Mus musculus with 20 samples.

Results

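Cholesterol is built from acetyl-CoA in the mevalonate pathway, and a group of sterol synthesis genes was followed here in mouse embryonic fibroblasts (MEFs), connective tissue cells grown out of mouse embryos. The group was given by name: Hmgcs1, Fdps and Idi1 of the isoprenoid part of the pathway, Fdft1, Sqle, Lss and Cyp51 of the sterol part, and the sterol sensor Insig1. All non-control probes whose accession maps to one of these genes in the RefSeq annotation of GRCm38.p6 were taken, which gave 13 of the 41174 probes on the array, for 7 of the 8 genes (17178 genes were named in all). No probe matched Idi1. None of the 8 genes codes for an uptake receptor, so uptake genes appear below only as other genes of the pathway.

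Serum from female mice of the inbred strain C3H/HeN was added to the MEFs, which stayed in it for 24 hours, and 5 arrays were made for each of 4 kinds of serum. In a 10-day set the mice had received 0 Gy (control) or 4 Gy, and in a 20-day set 0 Gy (control) or 8 Gy. The irradiation regime is labelled L/MDR, which the labels do not expand, and they do not say what the days refer to. Dose and days changed together, and the labels give neither the genotype of the MEFs, the age of the mice, nor whether serum was pooled. Whether replicates were independent cultures or sera is not given, and the p-values below cover the spread between these arrays alone, which may be technical.

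When sterols are low in the endoplasmic reticulum, the transcription factor SREBP-2 is carried to the Golgi, cut and released to the nucleus, where it activates genes of cholesterol synthesis and uptake. INSIG proteins hold the SREBP escort protein SCAP back when sterols are plentiful, and Insig1 is itself an SREBP target. SREBP-1 acts mainly on genes of fatty acid synthesis. In fibroblasts, lipoproteins of the serum in the medium are a source of cholesterol that lowers this programme.

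The promoters of members that the RefSeq promoter table of GRCm38.p6 held are shown as the stretch in which SREBP and its partner NF-Y are known to act. The table held 5 of the 8 (Hmgcs1, Idi1, Lss, Cyp51 and Insig1), and each window is the 250 bases before the gene's start, on the gene's strand. Capitals mark the sterol regulatory element TCACNCCAC, the NF-Y box CCAAT and the E-box CACGTG, searched on both strands, so that an NF-Y box on the other strand appears here as ATTGG. The 4 genes with both a promoter and a probe are printed. They lie at chr13:119690101-119690350 (plus strand, Hmgcs1), chr10:76531355-76531604 (plus strand, Lss), chr5:4104698-4104947 (minus strand, Cyp51) and chr5:28071162-28071411 (plus strand, Insig1).
Hmgcs1: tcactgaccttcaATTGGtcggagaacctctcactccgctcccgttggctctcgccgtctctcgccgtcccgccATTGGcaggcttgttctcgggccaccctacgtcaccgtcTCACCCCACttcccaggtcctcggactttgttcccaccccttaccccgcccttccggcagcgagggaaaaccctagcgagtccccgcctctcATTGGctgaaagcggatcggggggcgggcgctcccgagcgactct
Lss: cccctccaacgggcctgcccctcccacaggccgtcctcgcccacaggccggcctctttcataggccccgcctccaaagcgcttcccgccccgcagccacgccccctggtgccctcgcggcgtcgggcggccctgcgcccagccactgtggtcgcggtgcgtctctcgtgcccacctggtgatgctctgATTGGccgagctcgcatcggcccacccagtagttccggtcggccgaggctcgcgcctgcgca
Cyp51: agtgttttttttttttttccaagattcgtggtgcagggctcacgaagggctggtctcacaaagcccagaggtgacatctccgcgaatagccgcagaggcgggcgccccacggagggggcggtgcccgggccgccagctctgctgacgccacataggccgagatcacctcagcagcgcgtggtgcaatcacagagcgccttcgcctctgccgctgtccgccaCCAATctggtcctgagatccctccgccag
Insig1: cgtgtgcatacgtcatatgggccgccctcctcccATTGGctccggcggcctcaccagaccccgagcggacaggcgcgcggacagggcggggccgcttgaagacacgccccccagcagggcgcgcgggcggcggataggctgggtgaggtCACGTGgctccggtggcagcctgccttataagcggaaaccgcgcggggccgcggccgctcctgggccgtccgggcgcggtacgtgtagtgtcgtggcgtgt

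The NF-Y box was found in 5 of the 5 windows, against 33.8% of all 32851 promoter windows of the same length. The element TCACNCCAC was found in the Hmgcs1 window only, as TCACCCCAC from 137 to 129 bases before the start, and 1.05% of all windows held it. The looser form TCACNCNAC, which contains the first, was in 2.26% of all windows and added no further match. The E-box was found in the Insig1 window only, from 101 to 96 bases before the start, and in 6.02% of all windows. These are matches of letters in a window of 250 bases and say nothing on binding.

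Total RNA had been labelled with Cy3 and hybridised to 20 Agilent 1-colour arrays. Signal here is the log2 processed intensity after the 75th percentile of its array was subtracted, so a value of 0 is that percentile and every change is relative to it. That percentile lay between 731.37 and 1464.3 intensity units, highest in the 10-day control group (1316 ± 109, SD, n = 5 arrays) and lowest in the 20-day control group (916 ± 134), and 56.8% to 67.2% of probes were well above background. All 15 listed fibroblast markers were well above background on all arrays. The 20-day arrays also carried macrophage transcripts: the summed level of the macrophage list, in multiples of the 75th percentile, was 38.4 to 55.6 with control serum and 40.1 to 48.9 with 8 Gy serum, against 1.66 to 2.43 and 2.31 to 2.77 in the 10-day control and 4 Gy groups. Of the 15 macrophage markers with a probe, 12 were well above background on all 5 arrays of each 10-day group, and Spi1 and Cd163 on no 10-day array. Of the 8 endothelial markers 3 to 5 were well above background on all 5 arrays of a group, and Pecam1, Tie1 and Cldn5 on none of the 20 arrays. In bulk RNA, fewer cells of a type and less RNA per cell cannot be told apart. The arrays lay on 7 slides, of which 1 held both groups of a comparison (1 control and 2 irradiated arrays of the 10-day set). The 2 sets were scanned on different days, so set and scan day cannot be told apart.

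All 13 member probes were well above background on all 20 arrays. Probes of a gene are numbered from the brightest, and the level of a probe is never set against that of another.

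**Figure D1:**
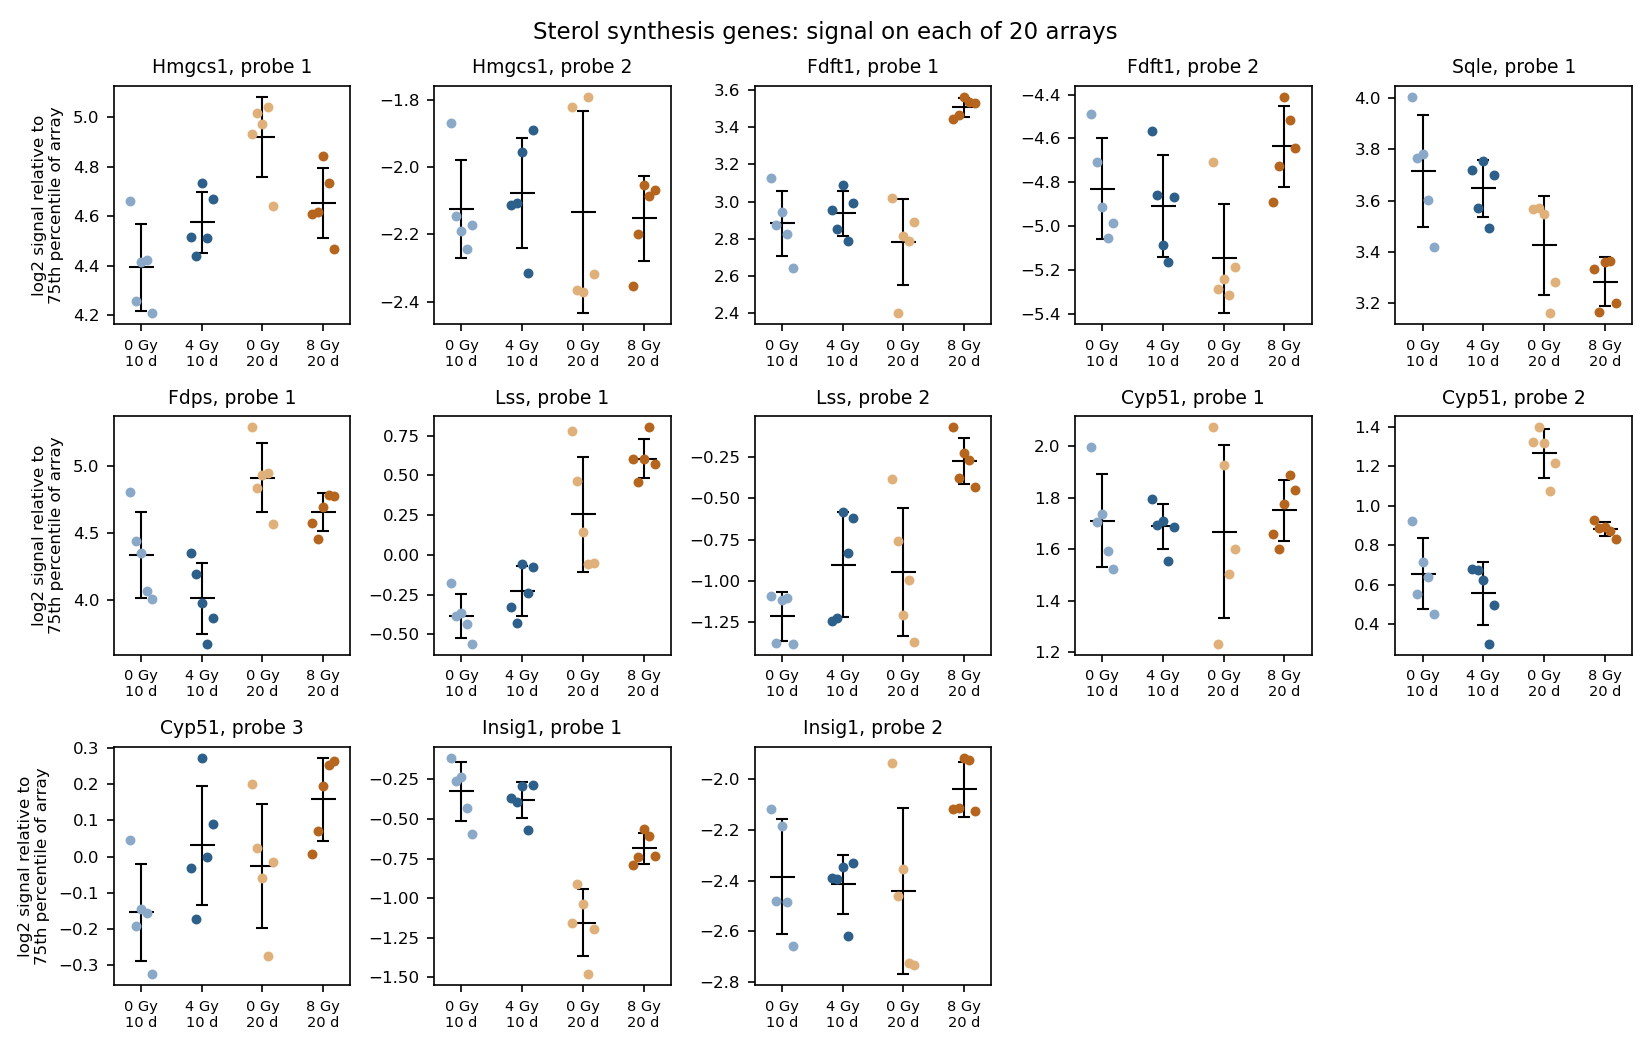
Signal (log2, relative to the array's 75th percentile, y axis) of each of the 13 probes by serum group (x axis: dose and set), with 1 dot per array and the mean ± SD of 5 arrays. Fdft1 probe 1 lies at 3.44 to 3.56 on the 8 Gy arrays, above every array of the other groups, and Insig1 probe 1 is lower on all 10 arrays of the 20-day set than the 10-day control mean.

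With 8 Gy serum, the member transcripts with the largest changes were those of Fdft1 and Lss, of the sterol part of the pathway, and of the sensor Insig1. Fdft1 (squalene synthase, the first step committed to sterols), Lss (lanosterol synthase, which closes squalene epoxide into the sterol ring system) and Insig1 rose on both of their probes, though only 1 probe of each kept its call under every scaling and background correction tried. Hmgcs1 (HMG-CoA synthase) fell on 1 of its 2 probes and Cyp51 (lanosterol demethylase) on 1 of its 3. In all, 6 of 13 probes rose and 2 fell at an adjusted p under 0.05 (limma, Benjamini-Hochberg over all 26226 probes tested in this comparison). That is 61.5% of the member probes, where 48% of all tested probes were called (20.6% higher, 27.4% lower). The median change of the members was 0.18 (log2), against -0.06 over all tested probes.

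Fdft1 probe 1 read 3.02, 2.40, 2.82, 2.79 and 2.89 on the 20-day control arrays and 3.44, 3.47, 3.56, 3.54 and 3.53 on the 8 Gy arrays. The 8 Gy arrays were all above the control arrays and lay close together, with an SD of 0.05 against 0.23. The change was 0.72 ± 0.10 (log2, limma SE, n = 5 per group), or 1.65-fold (adjusted p = 1.69e-05). Groups did not overlap for 3 of the 13 member probes, and for 29.5% of all tested probes. Probe 2 of Fdft1 read -4.71, -5.29, -5.24, -5.31 and -5.19 in controls and -4.89, -4.73, -4.41, -4.52 and -4.64 with 8 Gy serum. These are low signals: on control array 2 the lowest spot marked well above background stood at -5.61. Control array 1 was as high as the 8 Gy arrays, so the groups overlapped, and the change was 0.51 ± 0.14 (adjusted p = 0.00553). The call of probe 2 was lost after quantile normalisation (0.39, 0.0596) and with normexp (0.25, 0.0652).

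Lss probe 2 read -0.39, -0.76, -1.21, -0.996 and -1.37 in controls and -0.07, -0.38, -0.23, -0.27 and -0.43 with 8 Gy serum. Control array 1 reached into the 8 Gy range, and the other 4 lay below it. The change was 0.67 ± 0.17 (adjusted p = 0.00261). Probe 1 read 0.78, 0.47, 0.15, -0.06 and -0.05 against 0.60, 0.46, 0.60, 0.80 and 0.57, a change of 0.35 ± 0.14 (adjusted p = 0.0397), which was not called with array median scaling (0.21, 0.224). The control arrays of both Lss probes were spread widely (SD 0.36 and 0.39) and the 8 Gy arrays were not (SD 0.12 and 0.14). The controls differed by slide: probe 1 had a mean of 0.46 on the slide of 3 control arrays and -0.06 on that of 2. Its means on the 8 Gy slides were 0.55 and 0.69. Probe 2 had -0.78 and -1.18 on the control slides and -0.23 and -0.35 on the 8 Gy slides.

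Insig1 probe 1 read -1.16, -0.91, -1.04, -1.48 and -1.20 in controls and -0.79, -0.74, -0.56, -0.61 and -0.73 with 8 Gy serum. The groups did not overlap, and the change was 0.47 ± 0.10, or 1.39-fold (adjusted p = 0.00108). Probe 2 had control values of -1.94, -2.46, -2.35, -2.73 and -2.73 and 8 Gy values of -2.12, -2.11, -1.92, -1.92 and -2.12. Control array 1 was again within the 8 Gy range, and the change was 0.40 ± 0.13 (adjusted p = 0.0178). This call was lost with array median scaling, quantile normalisation, cyclic loess and normexp (0.25 to 0.32, adjusted p = 0.0642 to 0.138), while probe 1 kept its call under all 4, at 0.29 to 0.47.

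Cyp51 probes differed in direction. Probe 2 fell from 1.32, 1.40, 1.32, 1.08 and 1.22 in controls to 0.93, 0.89, 0.89, 0.87 and 0.83 with 8 Gy serum. All control arrays were above all 8 Gy arrays, with a change of -0.38 ± 0.09 (adjusted p = 0.00205). With normexp background correction, though, which started from the unprocessed median spot intensity, the change of this probe was 0.02 (adjusted p = 0.928). Its call did not hold in that setting, and which step of the setting made the difference was not tested. Probes 1 and 3 changed by 0.08 and 0.18 (adjusted p = 0.617 and 0.129), with 95% intervals of -0.18 to 0.35 and -0.02 to 0.39. Which of the 3 probes reads the transcript best was not tested.

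Hmgcs1 probe 1 read 4.93, 5.02, 4.97, 5.04 and 4.64 in 20-day controls and 4.61, 4.62, 4.84, 4.73 and 4.47 with 8 Gy serum. Control array 5 lay within the 8 Gy range, and the change was -0.27 ± 0.10 (adjusted p = 0.0338). It was -0.01 after quantile normalisation (adjusted p = 0.925) and -0.01 after cyclic loess, where it was no longer called. Probe 2 changed by -0.02 (adjusted p = 0.914). Fdps (farnesyl diphosphate synthase), with 4.57 to 5.29 in controls and 4.46 to 4.78 with 8 Gy serum, changed by -0.26 ± 0.16 (adjusted p = 0.184). Sqle (squalene epoxidase, between Fdft1 and Lss in the pathway) had 3.16 to 3.57 and 3.16 to 3.36 and changed by -0.14 (adjusted p = 0.283). The groups overlapped for Fdps and Sqle, with 95% intervals of -0.58 to 0.07 and -0.36 to 0.08. With normexp Sqle was called as lower (-0.35, adjusted p = 0.0151), while after quantile normalisation and cyclic loess it was 0.07 and 0.06, not called.

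**Figure D2:**
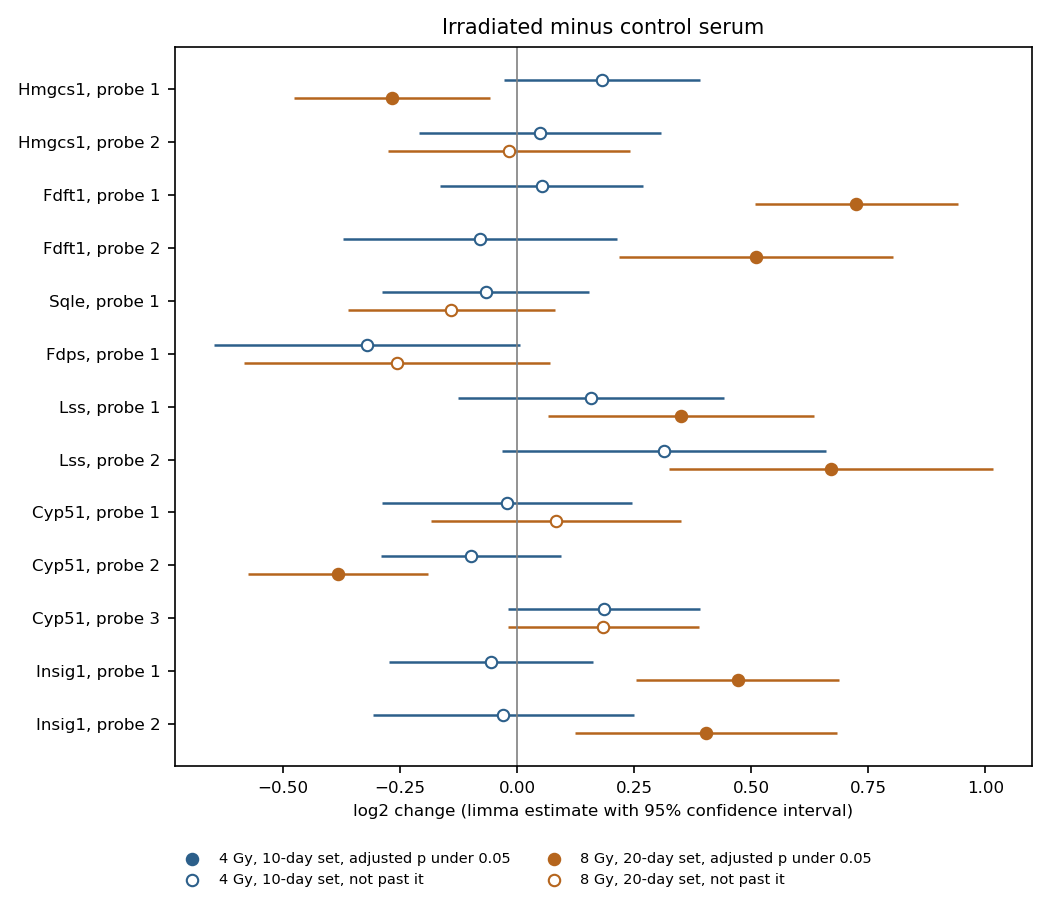
Log2 change of each of the 13 probes with irradiated serum against control serum (x axis, limma estimate with 95% confidence interval, 5 arrays per group), for the 10-day set at 4 Gy and the 20-day set at 8 Gy. Filled points passed an adjusted p of 0.05: 8 probes at 8 Gy, with Fdft1 probe 1 the highest at 0.72, and 0 at 4 Gy.

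In the 20-day set no slide carried both kinds of serum. With slide as a random block, 4 member probes stayed past the threshold: Fdft1 probe 1 (0.72, adjusted p = 0.00123), Insig1 probe 1 (0.49, 0.0116), Lss probe 2 (0.69, 0.0194) and Cyp51 probe 2 (-0.38, 0.0277). Fdft1 probe 2, Insig1 probe 2, Lss probe 1 and Hmgcs1 probe 1 had adjusted p-values of 0.0538, 0.0694, 0.09 and 0.158. The 20-day arrays met the rule for pairing. With the replicate number as a block within each set, a fit added after the data were seen, Lss probe 1 alone lost its call (adjusted p = 0.0718). Leaving out 1 array at a time, Lss probe 1 lost its call without any of 7 arrays (controls 3, 4 and 5 and 8 Gy arrays 1, 3, 4 and 5, adjusted p = 0.056 to 0.108). Hmgcs1 probe 1 lost it without any of 6 (controls 2, 3 and 4 and 8 Gy arrays 1, 2 and 5, 0.0616 to 0.0932), and Insig1 probe 2 without control 4 or 5 (0.0511 and 0.0523). Cyp51 probe 3 gained a call without control array 1 (0.24, 0.0444). The number of member probes called fell from 8 to 5 without control array 4.

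With 4 Gy serum of the 10-day set, 0 of 13 member probes passed the threshold, and 0 had an unadjusted p under 0.05 (limma). Of all 26225 tested probes, 5.25% were called (3.86% higher, 1.4% lower). Estimates ran from -0.32 for Fdps (adjusted p = 0.241) to 0.31 for Lss probe 2, with 6 of 13 above 0 and a median of -0.02, against -0.001 over all tested probes. The groups of every member probe overlapped, where 8.32% of all tested probes had groups apart. The 95% intervals of the 13 probes lay between -0.65 and 0.66, and that of Fdft1 probe 1 was -0.16 to 0.27, below its change at 8 Gy.

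Fdft1 probe 1 read 3.13, 2.88, 2.95, 2.83 and 2.65 with 10-day control serum and 2.96, 2.85, 3.09, 2.79 and 2.99 with 4 Gy serum, a change of 0.05 ± 0.10 with fully overlapping groups. Insig1 probe 1 changed by -0.06 and probe 2 by -0.03, and both Hmgcs1 probes by 0.18 and 0.05. Fdps read 4.80, 4.44, 4.35, 4.06 and 4.00 in controls and 4.35, 4.19, 3.98, 3.67 and 3.86 with 4 Gy serum. On the slide that held both groups, all 13 probes were higher on the 2 irradiated arrays than on the single control array, by 0.06 to 0.27, while the median over all tested probes there was 0.001. Fdps, at -0.32 over all arrays, was 0.27 on that slide. That control array (array 5) had the lowest mean of the members of all 20 arrays, -0.31.

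The response to irradiated serum differed between the sets for 4 of 13 member probes (limma test of the difference, 8 Gy response minus 4 Gy response), with 3 higher and 1 lower, where 36.4% of all tested probes differed (15.3% higher and 21.1% lower). Fdft1 probe 1 (0.67 ± 0.15, adjusted p = 0.00163), Fdft1 probe 2 (0.59 ± 0.20, 0.0257) and Insig1 probe 1 (0.53 ± 0.15, 0.00911) had the higher response at 8 Gy. Hmgcs1 probe 1 had the lower one (-0.45 ± 0.14, 0.0184), being 0.18 at 4 Gy and -0.27 at 8 Gy. The Lss responses of both sets were on the same side, and their difference (0.19 and 0.36, adjusted p = 0.457 and 0.247) did not pass the test. With slide as a random block only Fdft1 probe 1 stayed past the threshold (0.60, adjusted p = 0.0412). With normexp Fdft1 probe 2 (0.17, 0.429) and Insig1 probe 1 (0.36, 0.0778) lost their calls and Lss probe 2 gained one (0.65, 0.0362). Fdft1 probe 2 also lost its call with array median scaling (0.52, 0.0606), and Hmgcs1 probe 1 after quantile normalisation (-0.24, 0.205) and cyclic loess (-0.22, 0.227). The call of Fdft1 probe 2 was lost without 10-day control array 1, 4 Gy array 4 or 8 Gy array 3 (adjusted p = 0.0507 to 0.052). Insig1 probe 2 (0.43, adjusted p = 0.0798) gained one without 10-day control array 5 or 20-day control array 1 (0.0467 and 0.00759), and Cyp51 probe 2 without 10-day control array 1, 4 Gy array 4 or 20-day control array 4 (-0.35 to -0.33, 0.0331 to 0.0495).

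Levels also differed between the sets, in both directions. With control serum, 4 probes were higher and 2 lower in the 20-day set (46.2% of 13, where 67.7% of all tested probes were called, 35.4% higher and 32.3% lower). Lss probe 1 (0.64 ± 0.14, adjusted p = 3.59e-04) and Cyp51 probe 2 (0.61 ± 0.09, 8.55e-06) were higher with groups apart, and Fdps (0.58 ± 0.16, 0.00288) and Hmgcs1 probe 1 (0.53 ± 0.10, 1.18e-04) were higher with overlap. After quantile normalisation and after cyclic loess Fdps (0.19 and 0.17) and Hmgcs1 probe 1 (0.13 and 0.10) were no longer called. With normexp background correction Cyp51 probe 2 (0.11, adjusted p = 0.393) and Sqle (-0.14, 0.285) lost their calls, and Sqle did so with array median scaling too (-0.16, 0.245). Fdft1 probe 1 (-0.10, 0.401) gained one after quantile normalisation, cyclic loess and normexp (-0.39 to -0.33) and was 0.03 with array median scaling, and Lss probe 2 and Cyp51 probe 3 with array median scaling (0.40 and 0.26). Insig1 probe 1 was lower by -0.83 ± 0.10 (adjusted p = 8.71e-07, groups apart) while its probe 2 differed by -0.06 (0.72). Sqle was lower by -0.29 ± 0.11 (0.0203), a call lost without 10-day control array 1 (adjusted p = 0.0716) or 20-day control array 4 (0.0645) or 5 (0.0524), and with slide as a random block (0.136). Without 1 array, Fdft1 probe 2 (10-day control 4 or 5 or 20-day control 1, -0.43 to -0.36, adjusted p = 0.00691 to 0.0442) and Lss probe 2 (20-day control 5, 0.38, 0.0483) gained a call. Groups were apart for 3 member probes, and for 50.7% of all tested probes.

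With irradiated serum, 6 probes were higher and 2 lower in the 20-day set (61.5% of 13, where 57.1% of all tested probes were called, 28.3% higher and 28.8% lower), a comparison that shares its arrays with those above and mixes dose, days and scan day. Lss was higher on both probes (0.83 ± 0.14, adjusted p = 3.87e-05, and 0.63 ± 0.17, 0.00327). Fdps (0.64 ± 0.16, 0.00169), Fdft1 probe 1 (0.57 ± 0.10, 1.18e-04) and Cyp51 probe 2 (0.33 ± 0.09, 0.00516) were higher, and Sqle was lower (-0.36 ± 0.11, 0.00641). The Insig1 probes were called in opposite directions, -0.30 for probe 1 (0.018) and 0.38 for probe 2 (0.0217), and neither call held with slide as a random block (0.0532 and 0.131), nor did that of Cyp51 probe 2 (0.28, 0.0779). Insig1 probe 1 was also not called with array median scaling (-0.24, 0.0912) and normexp (-0.23, 0.0906), and Fdft1 probe 2 (0.27, 0.104) was called after quantile normalisation, cyclic loess and normexp (0.37 to 0.45). The call of Insig1 probe 2 was also lost without 4 Gy array 4 or 8 Gy array 3 (0.06 and 0.0511), and Fdft1 probe 2 gained one without 4 Gy array 1 (0.36, 0.037). Groups were apart for 7 member probes and for 51.2% of all tested probes. Beside these set differences, 14 of the 14 tested macrophage markers were higher in the 20-day set. Their median difference was 4.05 with control and 3.75 with irradiated serum. Of 15 fibroblast markers 10 were lower and 3 higher with either serum. Of all tested probes 32.3% were lower with control and 28.8% with irradiated serum. The part of these markers in the members' differences was not tested.

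**Figure D3:**
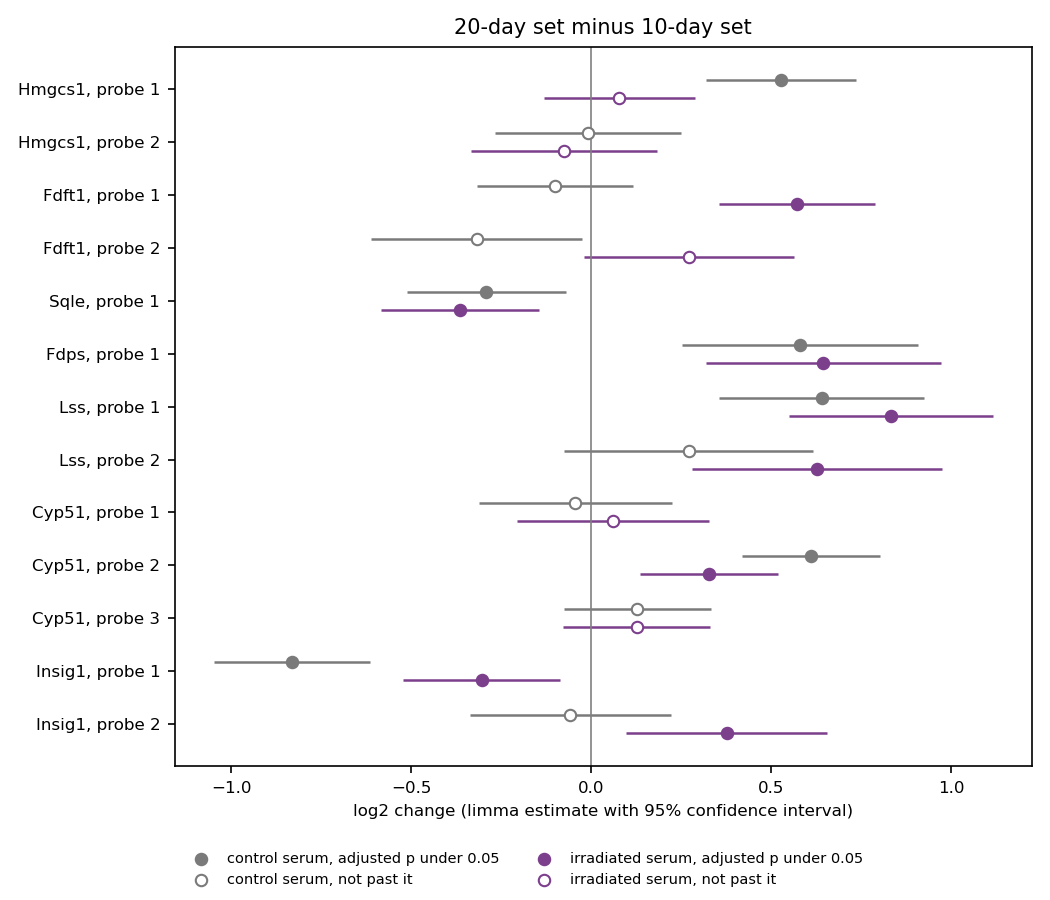
Log2 difference of each of the 13 probes between the 20-day and the 10-day set (x axis, limma estimate with 95% confidence interval, 5 arrays per group), with control serum and with irradiated serum. Filled points passed an adjusted p of 0.05: Lss probe 1, Cyp51 probe 2 and Fdps are higher in both, and Sqle and Insig1 probe 1 are lower in both. The lowest point is Insig1 probe 1 with control serum, at -0.83.

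Ordered by mean level, the genes did not share a ranking of the 4 groups. Hmgcs1 probe 1 was highest with 20-day control serum (4.92 ± 0.16, SD), then 8 Gy (4.65 ± 0.14), 4 Gy (4.58 ± 0.12) and 10-day control serum (4.39 ± 0.18), and neither 8 Gy from 4 Gy nor 4 Gy from its control differed past the threshold. Fdft1 probe 1 was highest with 8 Gy serum (3.51 ± 0.05), and 4 Gy (2.94 ± 0.12), 10-day control (2.88 ± 0.18) and 20-day control (2.78 ± 0.23) followed with overlapping arrays. Fdps stood at 4.91 ± 0.26, 4.66 ± 0.14, 4.33 ± 0.32 and 4.01 ± 0.27 in 20-day control, 8 Gy, 10-day control and 4 Gy serum, each neighbour overlapping the next. Sqle ran the other way for the sets, from 3.72 ± 0.22 and 3.65 ± 0.11 in 10-day control and 4 Gy serum to 3.42 ± 0.19 and 3.28 ± 0.09 in 20-day control and 8 Gy serum, again with overlapping neighbours. Lss probe 1 was highest with 8 Gy serum (0.61 ± 0.12), then 20-day control (0.26 ± 0.36), 4 Gy (-0.23 ± 0.16) and 10-day control serum (-0.38 ± 0.14), each overlapping the next. Cyp51 probe 2 was highest with 20-day control serum (1.27 ± 0.12), then 8 Gy (0.88 ± 0.03), 10-day control (0.66 ± 0.18) and 4 Gy serum (0.56 ± 0.16). Insig1 probe 1 was highest in 10-day control (-0.33 ± 0.19) and 4 Gy serum (-0.38 ± 0.11), which overlapped, and lower with 8 Gy (-0.69 ± 0.10) and 20-day control serum (-1.16 ± 0.21).

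Within groups the members moved together from array to array. After removing group means, 70 of 71 pairs of probes of different genes had a correlation above 0 over the 20 arrays, with a median r of 0.47, and the 7 pairs of probes of the same gene had a median of 0.51. Set against all other tested probes, a member probe had a median r between -0.03 and 0.09, with 45.8% to 58% above 0. Across groups as well, the r of same-gene probes ran from 0.11 to 0.85, highest for Lss. Between probes of different genes it ran from -0.70 to 0.87 with a median of 0.22. The arrays share slides and the scaling to the 75th percentile, and these are descriptions over 20 arrays. The mean of the 7 genes (brightest probe each, centred) was -0.07 ± 0.19 (SD) in 10-day control, -0.08 ± 0.10 in 4 Gy, 0.003 ± 0.16 in 20-day control and 0.14 ± 0.09 in 8 Gy serum. The 8 Gy arrays lay above all 4 Gy arrays and overlapped those of both control groups. Array 1 of each control group stood highest in its group, at 0.22 and 0.25.

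**Figure D4:**
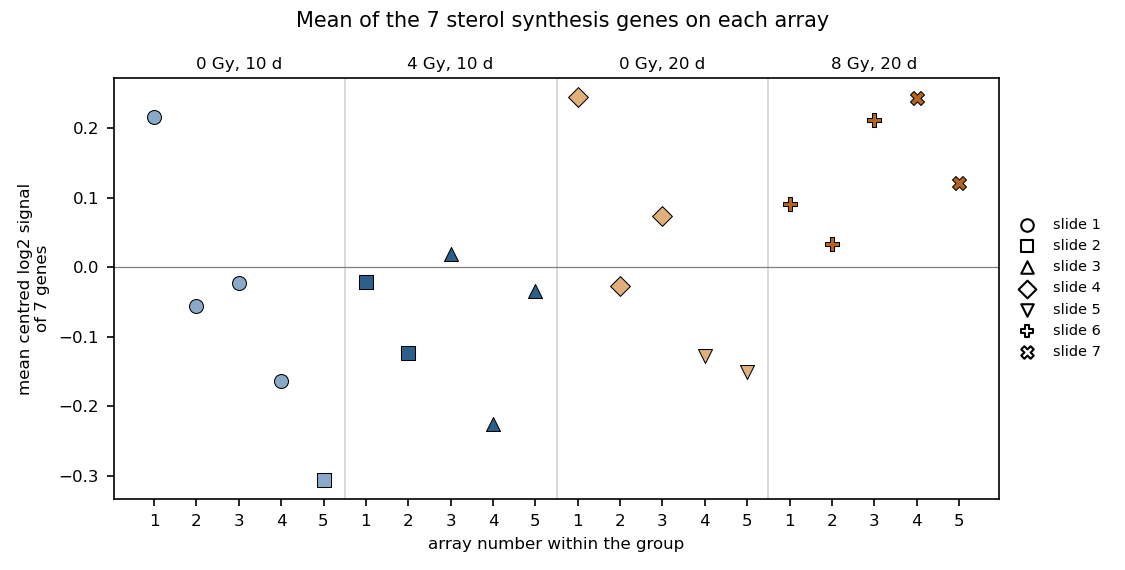
Mean centred log2 signal of the 7 genes (y axis, brightest probe of each) on each of the 20 arrays (x axis: array number within its group), with marker shape for the slide. The 8 Gy arrays lie between 0.03 and 0.24, and the 10-day control arrays spread from -0.31 to 0.22.

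The named probes most like that mean over the 20 arrays were those of Mvd (r = 0.84), Pcyt2 (0.82), Acss2 (0.80), Pdlim2 (0.79), Msx1 (0.78) and Glul (0.78). Mvd codes for mevalonate diphosphate decarboxylase, a step of the same pathway, Pcyt2 for an enzyme of phosphatidylethanolamine synthesis and Acss2 for an acetyl-CoA synthetase. Mvd stood at 1.37 ± 0.25, 1.30 ± 0.17, 1.37 ± 0.30 and 1.73 ± 0.19 (SD) in 10-day control, 4 Gy, 20-day control and 8 Gy serum.

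Other genes of sterol metabolism were followed through 6 lists, each gene by its brightest probe, with 62 tested genes beside the members. With 8 Gy serum 17 rose and 15 fell, 32 of 62, near the 48% of all tested probes (20.6% higher, 27.4% lower). The single lists are small, and no list was tested as a set. In the early mevalonate list 3 of 6 other genes rose (Acat2 0.50, Mvk 0.56 and Mvd 0.36) and Pmvk fell by 0.44 on the log2 scale. Mvk (mevalonate kinase) rose on both probes, and Pmvk (phosphomevalonate kinase) had -0.06 on its other probe. Among the other 10 genes of the sterol branch 0 rose and 5 fell: Erg28 (-0.51, adjusted p = 4.50e-05), Msmo1 (-0.42), Sc5d (-0.40), Dhcr7 (-0.37) and Ebp (-0.36). Dhcr7, which makes cholesterol from 7-dehydrocholesterol, had 0.31 on its other probe.

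Of the 11 other genes of SREBP sensing, 2 rose (the oxysterol receptors Nr1h2, 0.25, and Nr1h3, 0.45) and Srebf1 fell (-0.33, adjusted p = 0.0181). Srebf2, the gene of SREBP-2, changed by 0.10 (0.465). In the uptake and transport list 7 of 15 rose and 4 fell, where 20.6% of all tested probes were higher and 27.4% lower. Vldlr, a lipoprotein receptor, fell by 0.87 on the log2 scale (adjusted p = 1.33e-04). Mylip, a ubiquitin ligase for lipoprotein receptors, fell by 0.56 on its brightest probe and had 0.54 on the other. Of 10 fatty acid genes under SREBP, 5 rose and 2 fell, with Acly (ATP citrate lyase) at 1.21 ± 0.24 and Acaca (acetyl-CoA carboxylase) at 0.92 ± 0.14, the other Acaca probes at -0.04 and 0.76. The control arrays were spread widely for both: the SD was 0.80 for Acly and 0.43 for Acaca, against 0.06 and 0.09 with 8 Gy serum. Fads2, a desaturase, rose by 0.48 and Me1 (malic enzyme) fell by 0.41. In the storage and efflux list 0 of 10 rose and 2 fell, Abcg1 (-0.84) and Soat1 (-0.45). Of the macrophage markers 0 of 14 were higher and 3 lower in this comparison, beside the same 20.6% and 27.4% of all tested probes.

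With 4 Gy serum 1 of the 62 genes passed, where 5.25% of all tested probes did: Cyp46a1 (cholesterol 24-hydroxylase), which rose by 0.94 ± 0.20 (adjusted p = 0.0139). This rise was not called with slide as a random block, where the 1 probe called was lower, nor on slide means, where 0 were called. The signal of Cyp46a1 was low, -5.07 ± 0.42 (SD) in 10-day control and -4.13 ± 0.47 in 4 Gy serum. Srebf2 changed by -0.21 (0.294), not past the threshold. Of the macrophage markers 3 of 14 were called higher, where 3.86% of all tested probes were. With slide as a random block and on slide means 0 of all tested probes were called higher, so these marker calls did not hold there. The responses of the sets differed for 16 of the 62 (6 higher and 10 lower at 8 Gy), a smaller share than the 36.4% of all tested probes, among them Acly (1.37), Acaca (1.05), Mvk (0.76), Cyp46a1 (-1.32), Vldlr (-1.08), Mylip (-0.62), Erg28 (-0.61) and Me1 (-0.52).

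Between the control groups of the sets 15 genes were higher and 18 lower of 62, a smaller share than the 67.7% of all tested probes. By direction, 35.4% of all tested probes were higher and 32.3% lower. Storage and efflux genes were higher in 5 of 10 and lower in 0, led by Abcg1 (3.84), Apoe (1.79) and Nceh1 (1.64), which export cholesterol, carry it in lipoproteins and hydrolyse its esters. Abcg1 was well above background on 4 of 5 10-day control arrays. Late sterol branch genes Sc5d (1.5), Msmo1 (1.31) and Erg28 (1.1) were higher, and Lrp1 (-1.23) and Srebf2 (-0.60) lower. Uptake genes were lower in 8 of 15 and higher in 1, and fatty acid genes were lower in 6 of 10 and higher in 0. With irradiated serum 19 genes were higher and 17 lower, near the 57.1% of all tested probes, with Abcg1 (2.71), Apoe (1.66), Nceh1 (1.63), Sc5d (1.13) and Msmo1 (0.96) higher and Osbp (-1.27), Mylip (-0.76) and Me1 (-0.45) lower. Of the macrophage list 14 of 14 were higher alongside, as given above, and its part in these differences was not tested.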

How the data were processed

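Fluorescence intensity was deposited by the authors as scanner files, 1 per array; per the file headers the processed intensity is background-subtracted and detrended within the array. Per the file headers Agilent Feature Extraction 10.5.1.1 was used, while the submitters' processing notes name version 11.0. Quality marks of another kind (0 or 1) in the deposited files gave spots well above background or left out as outliers (50 to 181 per array). The authors' deposited log2 table served as an alternative; its correlation with the recomputed values was at least 0.996 on every array.

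Spots of a probe were averaged, and log2 processed intensity minus the array's 75th percentile over probes was taken. Accessions were named through RefSeq (GRCm38.p6): 24844 probes of 17178 genes matched and 16330 did not. Probes that passed the well-above-background mark 5 times in any of the groups (26227) entered 1 limma 3.58.1 fit (R 4.3.3) with a mean per group, with Benjamini-Hochberg adjustment over all tested probes and a threshold of 0.05. The script was tested on simulated data. Members and lists were chosen with earlier results of these data known. Genes outside the members were named by rule: in each comparison at most the 8 smallest p past the threshold, plus the fixed examples Srebf2 and Dhcr7, plus the 6 probes most like the members' mean. Some genes the rule names are not reported here. Acat2, Mvd, Pmvk, Msmo1, Sc5d, Ebp, Nr1h2, Nr1h3, Srebf1, Abcg1 and Soat1 in the 8 Gy comparison were named after their values were seen.

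Replicate numbers come from the titles. Deviations of same-numbered arrays correlated at 0.13 to 0.40 in the 20-day set, which meets the rule for pairing (every pair above 0.1), and at -0.05 to 0.16 in the 10-day set, which does not. Alternatives changed scaling, background correction, the filter, probes per gene, arrays fitted, slide and replicate blocks, and arrays left out. The replicate block within each set was not planned and was added after the data were seen.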

Additional observations from a re-analysis of the deposited data

Results flagged for a closer look

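The response to irradiated serum differed between the 20-day and the 10-day set, by the limma test of the difference, for Hmgcs1 probe 1 (-0.45), Fdft1 probe 1 (0.67), Fdft1 probe 2 (0.59) and Insig1 probe 1 (0.53).

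Single arrays stood apart from the other 4 of their group in 4 of 52 combinations of probe and group, where chance gives about 1 in 20. These were Hmgcs1 probe 1 on 20-day control array 5 (4.64, others 4.93 to 5.04), Hmgcs1 probe 2 on 10-day control array 1 (-1.87, others -2.24 to -2.15), Fdft1 probe 2 on 20-day control array 1 (-4.71, others -5.31 to -5.19) and Insig1 probe 2 on 4 Gy array 4 (-2.62, others -2.40 to -2.33).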

How the results depend on the processing

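Of the 8 member probes called with 8 Gy serum, 5 were left after quantile normalisation, 5 when only the groups compared were fitted, 4 with slide as a random block and 1 on slide means, and 4 of 7 genes were called with 1 probe per gene. For the difference between responses the count went from 4 to 1 with slide as a random block and to 0 on slide means (limma). For irradiated serum between sets it went from 8 to 5 with slide as a random block, to 2 on slide means and to 5 of 7 with 1 probe per gene. Leaving out 1 array at a time gave 5 to 9 probes at 8 Gy, 0 to 0 at 4 Gy, 3 to 5 for the difference, 5 to 7 for control serum and 7 to 9 for irradiated serum between sets. Cyp51 probe 2 turned to 0.0167 at 8 Gy with normexp. The replicate block within each set left 7 probes called at 8 Gy and changed no call at 4 Gy or in the difference. Over all tested probes, 1378 were called at 4 Gy, 1 with slide as a random block, 27 with slide as a fixed block, 0 on slide means (976 at an unadjusted p under 0.05), 3409 when only the groups compared were fitted and 38 to 2513 when an array was left out. At 8 Gy 12594 became 8375 with slide as a random block and 4992 on slide means, and for the difference 9537 became 5308 and 617. Scaling to the array median moved all 8 Gy changes by -0.14 (5409 higher and 7185 lower became 3806 and 9930) and the control differences between sets by 0.13. With normexp the median set difference over all tested probes moved by 0.16 with control and 0.11 with irradiated serum. Single probes moved either way: with control serum Cyp51 probe 2 went from 0.61 to 0.11 and Fdft1 probe 2 from -0.32 to 0.21. The causes were not tested. All member probes were well above background, and 5 arrays per group limit the precision.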
